A study of Homo sapiens with 4 samples.

Results

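The genes described are 10 of the 64252 gene IDs counted in SK-N-BE(2) cells. SK-N-BE(2) is a long-established human neuroblastoma line in which MYCN is amplified. They are the multidrug efflux pump gene ABCB1, the genes ABCB4 and RUNDC3B that lie beside it on chromosome 7, and the drug efflux pump genes ABCC1, ABCC2, ABCC3, ABCC4, ABCC5, ABCC10 and ABCG2. They were matched by symbol, and the set was chosen on the difference in ABCB1 between shTTC8 and shScb, which an earlier look at these libraries had shown; the differences of all 10 genes in that comparison are therefore given as a description. Whether edgeR called a member is stated as part of that description and supports nothing. All 10 had a count in at least 1 library, and 9 passed the low-count filter of the fit.

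The comparison is between 2 groups of 2 libraries. Cells of the first carried a short hairpin RNA against TTC8 (shTTC8, labelled a knockdown), and cells of the other carried a scramble hairpin (shScb, labelled control); both groups are the same cell line, and both had received a hairpin. The labels name no clone, and neither the number of hairpins nor their sequence is given in the sources used here. Hence an effect of lower TTC8 and an off-target effect of a hairpin cannot be told apart. The labels do not say either that replicate libraries are separate cultures, and the spread between them may be technical.

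ABC transporters are membrane proteins that couple ATP hydrolysis to the movement of a substrate across a membrane. Those of the ABCB, ABCC and ABCG families that move drugs outward are known for resistance of tumour cells to chemotherapy. P-glycoprotein, the product of ABCB1, exports hydrophobic drugs such as vincristine, doxorubicin and etoposide, which are used against neuroblastoma, and the ABCC proteins export mainly organic anions, glutathione conjugates and nucleotide analogues.

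RefSeq (GRCh38.p14) gives promoter windows for 7 of the 10 genes. Each runs from 250 bases before a transcription start to 50 bases from the start on, and is printed 5′ to 3′ on the gene's strand. Both windows of ABCB1 are shown, since this gene differed most of the 10 between the groups. Its counts do not tell transcripts of one start from those of the other. The window of RUNDC3B is shown because that gene starts inside the ABCB1 gene. The capitals mark matches, on either strand, to the motifs searched: CCAAT (the CCAAT box), GGGCGG (the GC box), CACGTG (an E-box), TGANTCA (an AP-1 motif) and GCGNGGGCG (an EGR motif). The windows are, in this order, ABCB1 downstream at chr7:87600835-87601134 (minus strand), ABCB1 upstream at chr7:87713246-87713545 (minus strand) and RUNDC3B at chr7:87628148-87628447 (plus strand).
ABCB1 downstream start: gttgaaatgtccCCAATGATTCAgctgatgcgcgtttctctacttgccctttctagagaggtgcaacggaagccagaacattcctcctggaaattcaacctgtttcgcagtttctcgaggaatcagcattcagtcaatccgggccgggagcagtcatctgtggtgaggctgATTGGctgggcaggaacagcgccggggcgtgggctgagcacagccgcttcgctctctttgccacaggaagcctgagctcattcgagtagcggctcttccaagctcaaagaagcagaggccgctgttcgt
ABCB1 upstream start: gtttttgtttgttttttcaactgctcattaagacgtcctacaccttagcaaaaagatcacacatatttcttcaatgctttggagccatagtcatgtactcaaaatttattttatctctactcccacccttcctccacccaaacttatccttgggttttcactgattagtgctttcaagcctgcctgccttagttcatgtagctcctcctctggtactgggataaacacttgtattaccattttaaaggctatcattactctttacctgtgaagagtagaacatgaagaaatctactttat
RUNDC3B start: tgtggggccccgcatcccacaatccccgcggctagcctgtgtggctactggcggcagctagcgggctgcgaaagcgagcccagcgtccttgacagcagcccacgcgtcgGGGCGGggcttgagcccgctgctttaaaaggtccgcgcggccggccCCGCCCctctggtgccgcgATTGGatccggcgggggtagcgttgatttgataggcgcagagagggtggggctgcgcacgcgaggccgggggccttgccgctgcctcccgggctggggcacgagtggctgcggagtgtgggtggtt

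The downstream ABCB1 window held CCAAT box matches at positions -238 and -79, counted with the start as 0, the one at -79 on the opposite strand (ATTGG). An AP-1 match at -234 shares its first base with the CCAAT match at -238. The downstream window held no exact GC box, E-box or EGR match. Only exact matches were counted, in this and in every other window. A GC-rich stretch of the downstream window differs from the GC box by 1 base and from the EGR motif by 1 base. The lack of an exact match therefore does not show that a binding site is absent. The upstream ABCB1 window, 112411 bases away, held none of the 5 motifs and had a GC content of 37.7%, against 55.3% in the downstream window. The RUNDC3B window, with a GC content of 71.3%, held GC box matches at -141 and -95 and a CCAAT match at -76. Of 35116 RefSeq promoter windows of that length, 34.6% held the CCAAT motif, 45.0% the GC box, 7.26% the E-box, 7.71% the AP-1 motif and 9.43% the EGR motif. Among the other pump genes, a window of ABCC10 held 5 GC box matches and its other window an E-box, and ABCC5 had 1 GC box match. Of the 5 windows of ABCG2, the 2 whose starts lie 50 bases apart share a GC box match on each strand and an E-box. The windows of ABCC2 and ABCC4 held none. These matches describe letters only. The gene counts do not say which start was used.

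The libraries held 38284663 and 40863047 counts in shTTC8 and 51168727 and 55331449 counts in shScb. TTC8, a BBSome subunit gene and the target of the hairpin, stood at 29.1 and 30.6 CPM (counts scaled by the TMM library size) in the shTTC8 libraries, against 196 and 191 CPM in the shScb libraries. Its log2 fold change of shTTC8 over shScb was -2.70 (SE 0.07). All 10 markers of sympathetic neuroblasts that were listed had counts, and they summed to 6155 and 6315 CPM in shTTC8 and 6070 and 6250 CPM in shScb. Within the list 6 were lower, among them DBH (log2 fold change -0.80), and 2 were higher, CHGB (1.41) and ISL1 (0.27). Over all tested genes, 16.7% were lower and 15.2% higher. CHGB stood at 1472 and 1485 CPM in shTTC8, against 543 and 566 CPM in shScb, so the similar sums rest on this gene. In bulk RNA, fewer cells of a kind and less RNA per cell cannot be told apart.

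ABCB1 was 11.98-fold higher in shTTC8. It had 2224 and 2365 counts in the shTTC8 libraries and 234 and 267 counts in the shScb libraries. On the CPM scale these are 57.3 and 57.1 in shTTC8, against 4.63 and 4.91 in shScb. The groups lay far apart, and the libraries of each group lay close together. The log2 fold change was 3.58 (SE 0.10), and leaving out any 1 library gave 3.54 to 3.63. ABCB1 (ENSG00000085563) is annotated on the minus strand of chromosome 7 from 87503633 to 87713323 (GRCh38, GENCODE 29) and shares no exonic base with another counted gene.

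ABCB4 and RUNDC3B, which lie beside ABCB1, had few reads. ABCB4 (chromosome 7, 87401697 to 87480435), the closest relative of ABCB1 and a phospholipid exporter of bile canaliculi in the liver, had 14 and 11 counts in shTTC8 and 9 and 9 counts in shScb. The shTTC8 libraries were higher in CPM, at 0.360 and 0.266 against 0.178 and 0.166 in shScb, but the 95% Poisson interval of the count of 14 runs from 7.65 to 23.5 and that of a count of 9 from 4.12 to 17.1. These intervals cover counting error only. The log2 fold change was 0.85 (SE 0.64) and was not called. ABCB1 and ABCB4 are similar in sequence, and how reads that match both were counted is not stated in the labels. The few ABCB4 counts are therefore uncertain.

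RUNDC3B (chromosome 7, 87627548 to 87832296, plus strand) encodes a RUN domain protein and no transporter. Its annotated span overlaps that of ABCB1 by 85776 bases, on the opposite strand, without any shared exonic base. It had 14 and 42 counts in shTTC8 and 28 and 19 counts in shScb, so that the shTTC8 libraries lay on either side of both shScb libraries. The 95% Poisson intervals of the shTTC8 counts, 7.65 to 23.5 and 30.3 to 56.8, do not meet. Its log2 fold change was 0.61 (SE 0.52) and was not called; it was -0.32 without shTTC8 replicate 2 and 1.16 without shTTC8 replicate 1. For each RUNDC3B count there were 159 and 56.3 ABCB1 counts in the shTTC8 libraries, against 8.36 and 14.1 in the shScb libraries. For each ABCB4 count there were 159 and 215 ABCB1 counts in shTTC8, against 26.0 and 29.7 in shScb.

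**Figure D1:**
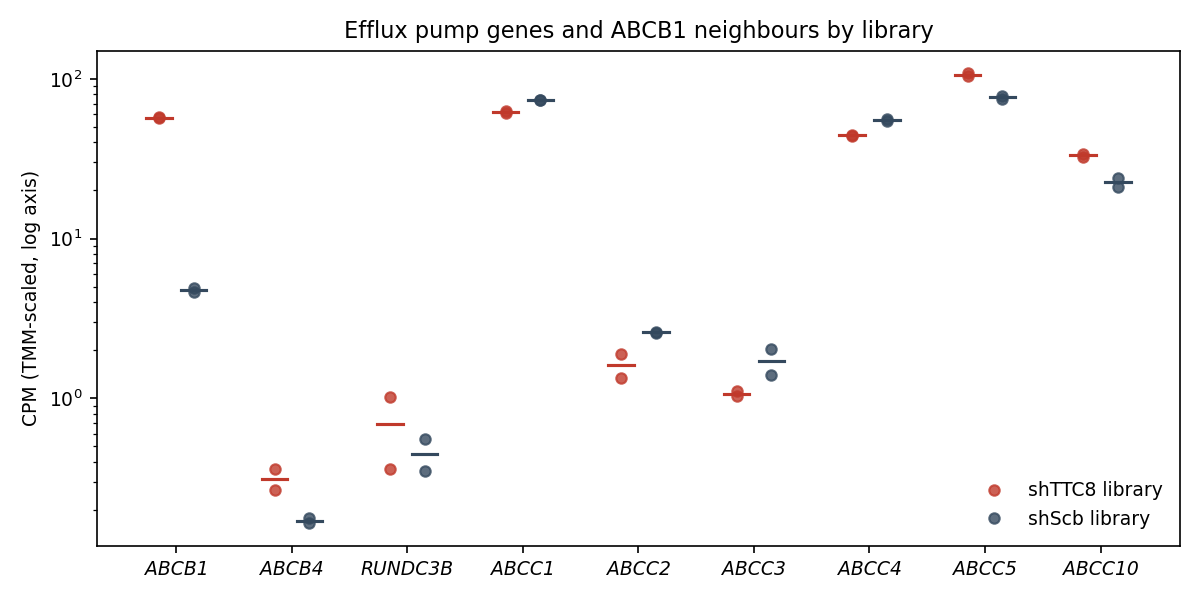
CPM of 9 genes in each library on a log axis, with shTTC8 left of shScb; points are libraries and bars are means of 2. ABCB1 averaged 57.2 CPM in shTTC8 and 4.77 CPM in shScb, whereas the other genes differed by less than 2-fold; ABCG2, with 0 counts in 3 libraries, is not drawn.

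Members of the ABCC family changed in both directions and by far less. ABCC5 (chromosome 3, 183919934 to 184018015), whose product exports cyclic nucleotides and nucleotide analogues, had 108 and 104 CPM in shTTC8, against 78.4 and 75.2 CPM in shScb. Its log2 fold change was 0.47 (SE 0.06). ABCC10 (chromosome 6, 43427366 to 43450430), whose product can export taxanes, had 33.7 and 32.6 CPM in shTTC8 and 20.9 and 24.0 CPM in shScb, a log2 fold change of 0.56 (SE 0.09). In both genes every shTTC8 library lay above every shScb library. ABCC10 shares 79 exonic bases with DLK2 on the opposite strand, which had 3.64% of its counts.

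ABCC1 and ABCC4 stood lower in shTTC8. ABCC1 (chromosome 16, 15949577 to 16143074) encodes MRP1, the exporter of leukotriene C4 and glutathione conjugates. It had 62.5 and 60.9 CPM in shTTC8, against 73.8 and 73.7 CPM in shScb, a log2 fold change of -0.26 (SE 0.07). ABCC4 (chromosome 13, 95019829 to 95301475), whose product exports cyclic nucleotides and prostaglandins, had 43.8 and 44.8 CPM in shTTC8 and 54.3 and 56.0 CPM in shScb, a log2 fold change of -0.32 (SE 0.07). The groups did not overlap in either gene. Both calls moved with a library left out. Without shTTC8 replicate 1 neither gene was past the threshold, at log2 fold changes of -0.28 for ABCC1 and -0.30 for ABCC4. Without shTTC8 replicate 2 ABCC1 was not, at -0.23. These log2 fold changes lay near those of the full fit. Without either shTTC8 library, fewer genes were called over all tested genes as well.

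ABCC2 and ABCC3, which export conjugates at the apical and the basolateral face of hepatocytes, were sparse. ABCC2 (chromosome 10, 99782640 to 99852594) had 52 and 79 counts in shTTC8 and 131 and 140 counts in shScb, or 1.34 and 1.91 CPM in shTTC8 against 2.59 and 2.58 CPM in shScb. ABCC3 (chromosome 17, 50634777 to 50692252) had 40 and 46 counts in shTTC8 and 71 and 111 counts in shScb, or 1.03 and 1.11 CPM in shTTC8 against 1.40 and 2.04 CPM in shScb. Both stood lower in each shTTC8 library than in each shScb library. Neither was called (log2 fold changes -0.67, SE 0.26, and -0.69, SE 0.31), but ABCC2 passed the threshold without shTTC8 replicate 2 (-0.94) and ABCC3 without shScb replicate 1 (-0.93).

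ABCG2 (chromosome 4, 88090264 to 88231322), the half-transporter that exports topotecan and mitoxantrone, was all but undetected. It had 0 counts in both shTTC8 libraries and 0 and 2 counts in the shScb libraries. A count of 0 allows up to 3 counts, which are 0.0772 and 0.0724 CPM in the shTTC8 libraries and 0.0593 CPM in shScb replicate 1. It did not pass the low-count filter, and no difference was detectable at this depth.

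In all, 3 of the 9 members that passed the filter were called higher (edgeR adjusted p under 0.05 over all 19610 tested genes, of which 15.2% were higher) and 2 lower (16.7% of all tested genes were). In either direction 31.9% of all tested genes and 39.2% of the tested protein-coding genes were called. The groups' libraries did not overlap for 8 of the 9 members, against 65.5% of all tested genes. These counts describe the members, which were chosen with this comparison known.

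Per kilobase of merged annotated exons (RPKM), the order of the levels differed between the groups. In shTTC8, ABCB1 led with 9.85 ± 0.0152 RPKM, followed by ABCC5 (9.28 ± 0.262), ABCC1 (8.15 ± 0.1502), ABCC4 (5.13 ± 0.0775) and ABCC10 (4.10 ± 0.0929; SD, n = 2). In shScb, ABCC1 led with 9.74 ± 0.00109 RPKM, followed by ABCC5 (6.71 ± 0.196), ABCC4 (6.39 ± 0.136), ABCC10 (2.78 ± 0.274) and, in position 5, ABCB1 (0.822 ± 0.0345; SD, n = 2). The libraries of neighbours in these orders did not overlap, except that in shTTC8 RUNDC3B overlapped both ABCC2 above it and ABCC3 below it. The 5 remaining genes, all at or below 0.330 RPKM, followed in both groups. With the longest annotated transcript as the length, ABCC5 came first in both groups, and ABCB1 came in position 2 in shTTC8 and in position 5 in shScb.

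Summed over the 9 ABC genes, the level was 37.1 and 36.6 RPKM in shTTC8, against 26.8 and 27.2 RPKM in shScb. ABCB1 made up 26.5% and 26.9% of that sum in the shTTC8 libraries and 2.98% and 3.11% in the shScb libraries. With the longest annotated transcript as the length, its shares were 22.2% and 22.6% in shTTC8 and 2.48% and 2.60% in shScb. The sums below, like those above, use merged exons and depend on that length. With ABCB1 left out, the sum was 27.3 and 26.7 RPKM in shTTC8, against 26.0 and 26.3 RPKM in shScb. The sum of these 8 genes was higher in each shTTC8 library than in each shScb library, by less than the difference in ABCB1 alone, with ABCC5 and ABCC10 higher and ABCC1 and ABCC4 lower. The share of ABCC1 was 22.2% and 22.0% in shTTC8, against 36.4% and 35.8% in shScb.

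**Figure D2:**
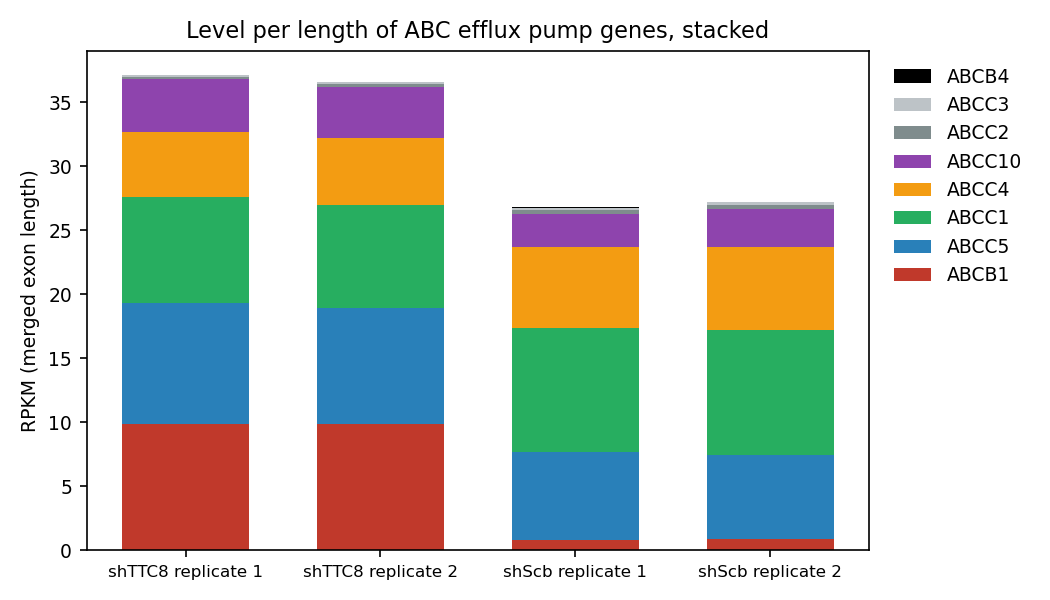
RPKM per merged exon length of the ABC efflux pump genes, stacked for each library, with the shTTC8 libraries left of the shScb libraries (ABCG2, at 0 or nearly so, is not drawn). The ABCB1 segment is 9.86 and 9.84 RPKM in shTTC8 and 0.797 and 0.846 RPKM in shScb, and the other segments sum to between 26.0 and 27.3 RPKM in the 4 libraries.

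The rest of the chromosome 7 region was examined because ABCB1 and its neighbours are known to be amplified together in drug-selected cell lines. Besides ABCB1, ABCB4 and RUNDC3B, 30 counted genes have a span within 1 Mb of ABCB1, and 10 of these were tested. Of the 10, 2 were higher and 2 lower (40% called, against 31.9% of all tested genes). Their median log2 fold change was -0.06, against 0.004 over all tested genes. On one side, TMEM243 averaged 20.7 ± 0.284 CPM in shTTC8 and 15.9 ± 0.679 CPM in shScb (SD, n = 2), a difference of 0.39 on the log2 scale with an SE of 0.10, edgeR adjusted p = 0.0065. DMTF1-AS1 averaged 1.63 ± 0.262 CPM in shTTC8 and 0.772 ± 0.365 CPM in shScb (SD, n = 2), a difference of 1.07 on the log2 scale with an SE of 0.36, edgeR adjusted p = 0.0361, and was not called without shTTC8 replicate 2 (edgeR adjusted p = 0.16) or without shScb replicate 1 (edgeR adjusted p = 0.235); without shScb replicate 2 its log2 fold change was 1.66. Both share exonic positions with DMTF1, which had 313% of the counts of TMEM243 and 4893% of those of DMTF1-AS1, and they are uncertain because the library kit did not mark the strand.

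On the other side, DBF4, the regulatory subunit of the CDC7 kinase that starts DNA replication, fell to 34.7 ± 0.592 CPM in shTTC8, against 45.3 ± 0.897 CPM in shScb (SD, n = 2), a difference of -0.39 on the log2 scale with an SE of 0.08, edgeR adjusted p = 0.0015. Its exons overlap those of SLC25A40, whose counts were 50.3% of its own. ADAM22, a neuronal receptor of LGI1, fell to 76.1 ± 6.26 CPM in shTTC8, against 99.4 ± 4.56 CPM in shScb (SD, n = 2), a difference of -0.38 on the log2 scale with an SE of 0.07, edgeR adjusted p = 7.6e-04. SRI, which encodes the calcium-binding protein sorcin, stood at 81.3 ± 0.821 CPM in shTTC8 and 72.5 ± 2.86 CPM in shScb (SD, n = 2) and was not called (0.16 on the log2 scale with an SE of 0.06, edgeR adjusted p = 0.0652). No tested gene of the region came near the log2 fold change of ABCB1, and the highest of the 10 was that of DMTF1-AS1. Copy number was not measured, and amplification of the region was not tested.

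**Figure D3:**
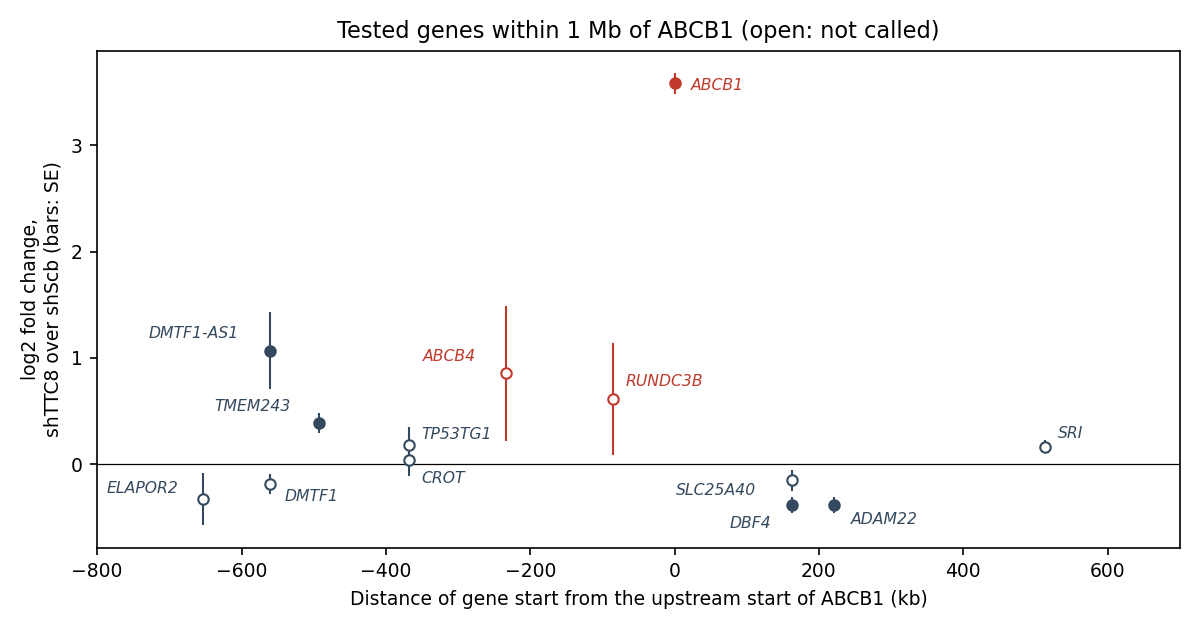
Log2 fold change of shTTC8 over shScb (points; bars are SE) of every tested gene within 1 Mb of ABCB1, against the distance of its start from the upstream start of ABCB1; filled points were called. ABCB1 stands at 3.58, the highest of the other genes, DMTF1-AS1, at 1.07, and DBF4 and ADAM22 at -0.39 and -0.38.

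ABC genes outside the set of drug pumps moved both ways. Of 39 listed, 28 were tested, 8 were higher and 7 lower, with a median log2 fold change of 0.09. The share called was 53.6%, against 31.9% of all tested genes and 39.2% of the tested protein-coding genes. ABCA12, a lipid transporter known from keratinocytes, rose to 42.9 ± 2.33 CPM in shTTC8, against 14.7 ± 0.109 CPM in shScb (SD, n = 2), a difference of 1.54 on the log2 scale with an SE of 0.09, edgeR adjusted p = 1.55e-08. ABCG1 and ABCA1, which export cholesterol, rose by 1.42 (SE 0.16, edgeR adjusted p = 1.08e-05) and 1.39 (SE 0.31, edgeR adjusted p = 0.0028) on the log2 scale, with ABCA1 low throughout, at 2.49 ± 0.0417 CPM in shTTC8 and 0.953 ± 0.359 CPM in shScb (SD, n = 2). ABCC9, which encodes the sulfonylurea receptor subunit of a potassium channel and exports no drug, rose by 1.14 (SE 0.12, edgeR adjusted p = 3.99e-06).

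Smaller rises were those of ABCF2 (log2 fold change 0.36, SE 0.06) and of ABCA7 (0.53, SE 0.14), which was not called without shTTC8 replicate 1 (edgeR adjusted p = 0.14). Among the lower genes, ABCB10, a mitochondrial transporter needed for haem synthesis, changed by -0.39 (SE 0.09), and ABCB6, a porphyrin transporter, by -0.57 (SE 0.08). ABCD2, a peroxisomal fatty acid transporter, changed by -0.66 (SE 0.12). ABCE1, which splits ribosomes after translation, changed by -0.29 (SE 0.06); it was not called without shTTC8 replicate 2 (edgeR adjusted p = 0.0563) and overlaps exons of a neighbour whose counts were 28.4% of its own.

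**Figure D4:**
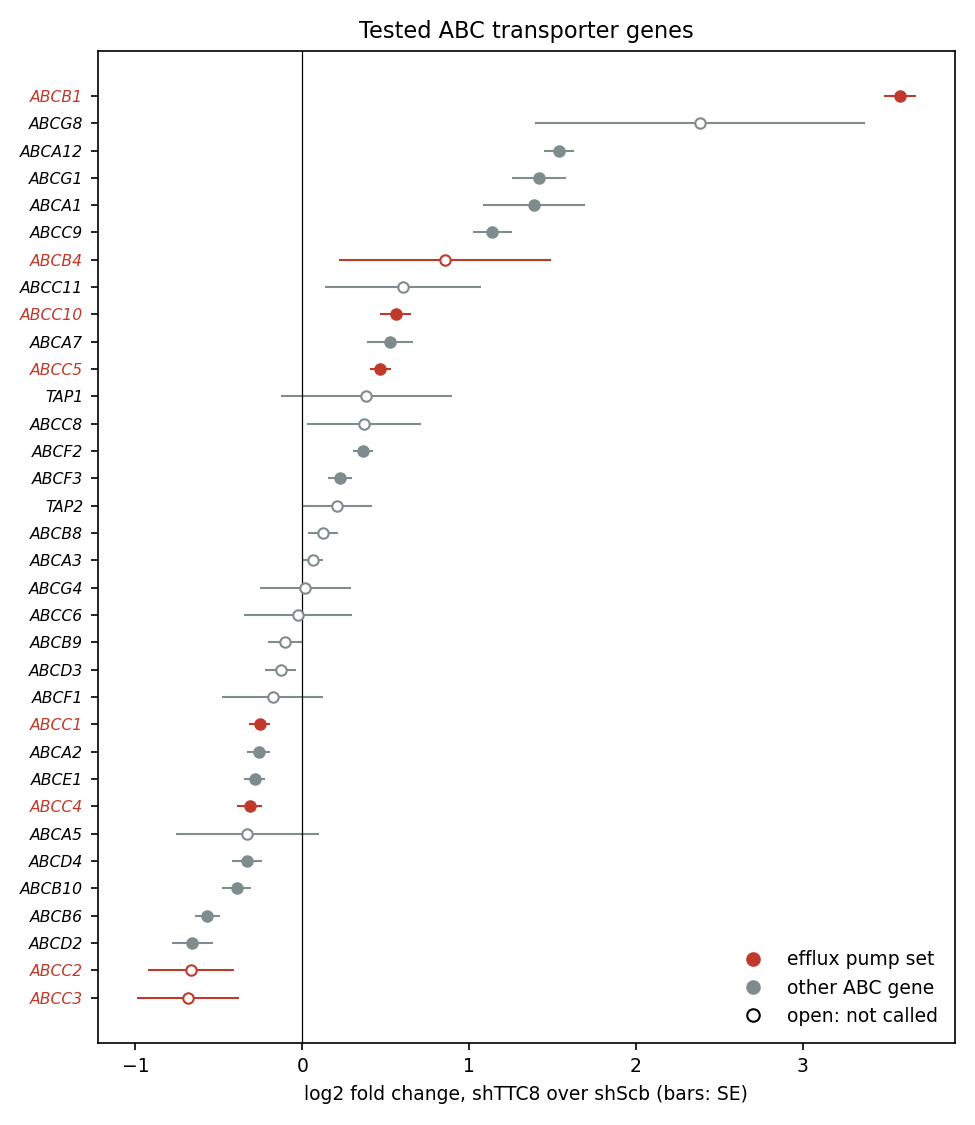
Log2 fold change of shTTC8 over shScb (points; bars are SE) for 34 tested ABC genes in order, with the 8 tested ABC genes of the efflux pump set in red and open points for genes not called. ABCB1 stands at 3.58, the called gene next to it, ABCA12, at 1.54, and ABCD2, the lowest drawn with a call, at -0.66.

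Regulators that are known to act on ABCB1 or other pump genes also moved both ways. Of 45 tested, 9 were higher and 12 lower (median log2 fold change -0.10). The share called was 46.7%, against 31.9% of all tested genes and 39.2% of the tested protein-coding genes. EGR1, a zinc finger factor reported at the ABCB1 promoter, rose to 32.1 and 29.3 CPM in shTTC8, against 6.33 and 6.72 CPM in shScb (2.23 on the log2 scale with an SE of 0.10, edgeR adjusted p = 2.55e-09). YBX1, which encodes the Y-box factor known to bind the inverted CCAAT motif of ABCB1, fell to 1043 and 1034 CPM in shTTC8, against 1352 and 1428 CPM in shScb (-0.42 on the log2 scale with an SE of 0.06, edgeR adjusted p = 9.5e-05). SP1, which binds GC boxes, changed by -0.74 (SE 0.06, edgeR adjusted p = 5.61e-07), CEBPB by -0.96 (SE 0.08, edgeR adjusted p = 4.43e-07) and MYCN by -0.61 (SE 0.06, edgeR adjusted p = 3.49e-06). The deacetylase gene HDAC1 rose by 0.61 (SE 0.06) and the transcription factor gene TP73 by 0.75 (SE 0.09); TP73 overlaps exons of an antisense neighbour whose counts were 269% of its own. NR1I2, the xenobiotic receptor that induces ABCB1 in liver and gut, had 0 counts in every library.

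Genes for membrane scaffolds and trafficking of pumps gave 2 higher and 4 lower of 17 tested (median 0.03). The share called was 35.3%, against 31.9% of all tested genes and 39.2% of the tested protein-coding genes. CAV1, which encodes caveolin-1 and lies far from ABCB1 on chromosome 7, had 2 and 2 counts in shTTC8, against 104 and 99 counts in shScb (edgeR adjusted p = 1.23e-06). Its partner CAV2 averaged 0.271 ± 0.164 CPM in shTTC8 and 0.930 ± 0.223 CPM in shScb (SD, n = 2; edgeR adjusted p = 0.0137), with a log2 fold change of -1.76 that was -2.57 without shTTC8 replicate 2, and it was not called without shTTC8 replicate 1 (edgeR adjusted p = 0.0955) and without shScb replicate 1 (edgeR adjusted p = 0.0749). RAB4A, a GTPase of endosomal recycling, changed by -0.44 (SE 0.07, edgeR adjusted p = 2.0e-04) and the raft protein gene FLOT2 by 0.37 (SE 0.07, edgeR adjusted p = 0.0013). CAVIN1, a coat protein of caveolae, changed by -0.94 (SE 0.29, edgeR adjusted p = 0.0226) and was not called without shTTC8 replicate 2 (edgeR adjusted p = 0.189) or without shScb replicate 2 (edgeR adjusted p = 0.079). MSN, whose product moesin ties membrane proteins to actin, changed by 0.17 (SE 0.06, edgeR adjusted p = 0.0425) and was not called without shTTC8 replicate 1 (edgeR adjusted p = 0.339) or replicate 2 (edgeR adjusted p = 0.153).

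Of 47 tested enzymes that modify drugs before export, 12 were lower and 4 higher (median -0.08). The share called was 34.0%, against 31.9% of all tested genes and 39.2% of the tested protein-coding genes. NQO1, a quinone reductase, fell to 64.7 ± 3.84 CPM in shTTC8, against 127 ± 0.223 CPM in shScb (SD, n = 2), a difference of -0.97 on the log2 scale with an SE of 0.06, edgeR adjusted p = 6.73e-08. The cytochrome gene CYP2S1 changed by -2.48 (SE 0.24), the aldo-keto reductase gene AKR1C1 by -1.70 (SE 0.21) and the sulfotransferase gene SULT1C4 by -0.76 (SE 0.12). The carbonyl reductase gene CBR3 changed by -0.72 (SE 0.14) and the glutathione transferase gene GSTM2 by -0.62 (SE 0.09). AKR1C1 and GSTM2 have close paralogs, and CBR3 overlaps exons of its antisense gene, so these values are uncertain. Targets of NRF2, the oxidative stress factor that also acts on ABCC genes, gave 9 lower and 2 higher of 20 tested (55% called, median -0.16). TXNRD1, thioredoxin reductase, fell to 125 ± 3.98 CPM in shTTC8, against 330 ± 9.88 CPM in shScb (SD, n = 2), a difference of -1.40 on the log2 scale with an SE of 0.06, edgeR adjusted p = 1.11e-09. PIR changed by -1.21 (SE 0.09), the cystine transporter gene SLC7A11 by -1.23 (SE 0.13) and the ferritin gene FTL by -0.44 (SE 0.07). NQO1 and ABCB6 stand in 2 lists each.

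Carriers for drug uptake and metals gave 3 higher and 3 lower of 22 tested (median 0.08). The share called was 27.3%, against 31.9% of all tested genes and 39.2% of the tested protein-coding genes. The nucleoside carrier gene SLC29A1, through which nucleoside drugs enter cells, changed by -0.43 (SE 0.06, edgeR adjusted p = 6.1e-05). SLC29A4 changed by -0.39 (SE 0.06) and overlaps exons of a neighbour whose counts were 111% of its own, and the organic anion carrier gene SLCO4A1 rose by 0.73 (SE 0.12, edgeR adjusted p = 3.2e-04). SLC29A3, another nucleoside carrier gene, rose by 0.54 (SE 0.12) and the carnitine carrier gene SLC22A5 by 0.54 (SE 0.14), the second of which was not called without shTTC8 replicate 2 (edgeR adjusted p = 0.052). The copper pump gene ATP7A changed by -0.27 (SE 0.07), was not called without shTTC8 replicate 1 (edgeR adjusted p = 0.0502) or replicate 2 (edgeR adjusted p = 0.0773), and overlaps exons of a neighbour whose counts were 567% of its own. In the list of protein targets of drugs that the pumps export, 6 of 17 were higher and 4 lower (58.8% called, median 0.11). The lower genes include MVP, which encodes a vault protein and no such target. TOP2A, the topoisomerase hit by etoposide and doxorubicin, fell to 374 ± 8.39 CPM in shTTC8, against 508 ± 27.1 CPM in shScb (SD, n = 2), a difference of -0.44 on the log2 scale with an SE of 0.06, edgeR adjusted p = 7.42e-05. The neuronal tubulin gene TUBB3 rose to 556 ± 39.3 CPM in shTTC8, against 397 ± 21.6 CPM in shScb (SD, n = 2), a difference of 0.49 on the log2 scale with an SE of 0.07, edgeR adjusted p = 6.59e-05, and TUBB4A rose by 0.83 (SE 0.10). TUBB4B rose by 0.25 (SE 0.06) and was not called without shTTC8 replicate 1 (edgeR adjusted p = 0.0693). The proteasome subunit gene PSMB5 rose by 0.45 (SE 0.06). TYMS, thymidylate synthase, changed by -1.26 (SE 0.08, edgeR adjusted p = 2.39e-08), and the counts of ENOSF1, which overlaps its exons, were 27.5% of its own. Over the 6 lists together, 26 of 167 tested genes were higher and 43 lower (41.3% called).

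**Figure D5:**
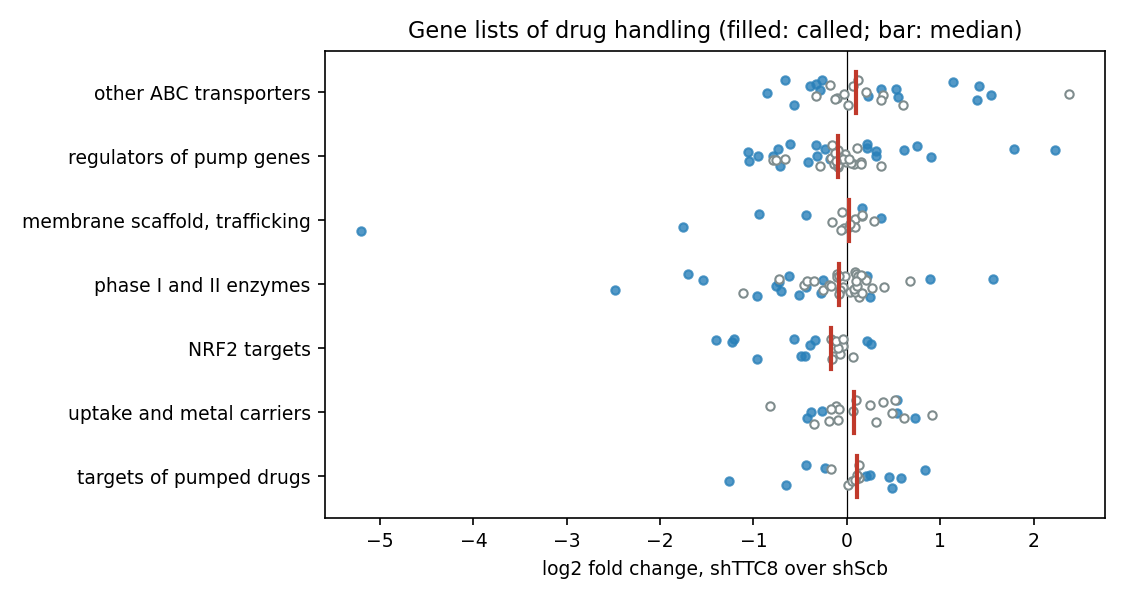
Log2 fold change of shTTC8 over shScb of every tested gene in 7 lists, 1 point a gene with random vertical spread; filled points were called and the red bar is the list's median. The medians lie between -0.16 for NRF2 targets and 0.11 for targets of pumped drugs, and the point at far left is CAV1 with 2 counts in each shTTC8 library.

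ABCB1 is strongly expressed in capillary endothelium and in some blood cells, so markers of cells that a pure culture would lack were read beside it. Endothelial markers summed to 3.24 and 3.04 CPM in shTTC8 and 6.61 and 6.31 CPM in shScb. Of the 12, 3 (PECAM1, TEK and ERG) had 0 counts in every library, and of 4 tested 3 were lower and none higher. Blood cell markers summed to 26.0 and 25.1 CPM in shTTC8 and 32.6 and 30.8 CPM in shScb; 4 of 10 (CD3E, CD2, KLRD1 and CD48) had 0 counts everywhere, and of 6 tested 2 were lower and 1 higher. PTPRC, the leukocyte phosphatase CD45, had 3.55 and 2.996 CPM in shTTC8, against 15.8 and 15.0 CPM in shScb, and CORO1A, an actin-binding protein gene, had 16.8 and 17.6 CPM in shTTC8, against 10.4 and 9.81 CPM in shScb. Without PTPRC the blood cell sum was higher in shTTC8, at 22.4 and 22.1 CPM, against 16.8 and 15.7 CPM in shScb. That higher sum rests on CORO1A, so the direction of the sum depends on these 2 genes. Epithelial markers summed to 10.7 and 11.6 CPM in shTTC8 and 15.6 and 16.2 CPM in shScb, with CDH1 and CDH16 at 0, and of 8 tested 3 were lower and none higher. Over all tested genes, 15.2% were higher and 16.7% lower. The part of these markers in the ABCB1 difference was not tested.

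The 5 genes whose centred log2 CPM lay nearest to those of ABCB1 over the 4 libraries, among tested genes with a symbol and a mean of at least 5 CPM, were MT1F, TMEM200B, KCNK2, ZNF467 and CHST8. Likeness was the Euclidean distance between the values centred over the libraries, which ran from 0.254 for MT1F to 0.805 for CHST8. CHST8, a sulfotransferase gene, had 22.9 and 21.8 CPM in shTTC8, against 3.32 and 3.13 CPM in shScb. KCNK2, a potassium channel gene, had 11.5 and 10.4 CPM in shTTC8, against 1.40 and 0.791 CPM in shScb. With 2 groups of 2 libraries, such likeness is mainly a similar difference between the groups. ZNF467 rested on shScb libraries at 0.930 and 1.91 CPM, and its log2 fold change of 3.19 was 3.80 without shScb replicate 2. MT1F has near-identical paralogs, and TMEM200B overlaps exons of a neighbour whose counts were 1419% of its own.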

How the data were processed

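RNA of 4 SK-N-BE(2) samples was sequenced, 2 per group, with groups taken from the titles. TRIzol extraction and an Illumina TruSeq RNA kit, which does not keep strand, are named per the labels' protocols. HISAT2 2.2.0 and hg38 are named per the submitters' processing notes. The read counter and the gene annotation behind the table are not stated there. The deposited table holds raw whole-number counts per Ensembl gene.

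From these counts, edgeR 4.0.16 (R 4.3.3, filterByExpr, TMM, robust quasi-likelihood F test, Benjamini-Hochberg over 19610 tested genes, threshold 0.05) compared shTTC8 with shScb, and "called" means past that threshold. SE was taken as the absolute log2 fold change divided by the root of F. CPM used TMM-scaled library sizes, and RPKM used GENCODE 29 exons (GRCh38). A name table gave symbols for 40995 IDs, and GENCODE 29 for 15596 more. The biological coefficient of variation, edgeR's name for the spread between replicate libraries, was 10.5%. That spread may be technical, since the labels do not say that the replicates are separate cultures. The fit was tested on simulated data.

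The members, the gene lists, the naming rule and the alternatives were chosen with earlier results of these data known. Named were TTC8, the 10 members, called genes within 1 Mb of ABCB1, up to 6 called genes of each list by smallest p (12 for other ABC genes), a few fixed regulators, and the 5 genes most like ABCB1. SRI, MVP and the marker genes named lie outside this rule and were chosen after their values were seen. Some genes that the rule names are not reported here. Protein sequences were not used here.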

Additional observations from a re-analysis of the deposited data

How the results depend on the processing

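Tried in place of the fit as reported were scaling by RLE or by library size only, dropping the low-count filter or asking for 1 CPM in 2 libraries, DESeq2 1.42.0, limma-voom (limma 3.58.1), non-robust fitting, a replicate block, leaving out each library, thinning to the smallest total and an adjusted p under 0.01. Of the members, 3 were called higher and 2 lower. With a library left out, 3 were higher each time and 0 to 3 lower. Of the other ABC genes, 8 higher and 7 lower became 6 to 8 and 4 to 8 with a library left out, and 9 were higher with limma-voom or the block. Within 1 Mb of ABCB1, the 2 higher genes became 1 with no low-count filter, DESeq2, limma-voom, non-robust fitting or an adjusted p under 0.01, and 1 to 3 with a library left out, while 2 to 3 were lower. Over the drug handling lists, 26 higher genes became 16 with an adjusted p under 0.01 and 16 to 33 with a library left out, and 43 lower genes 32 to 49. With library size alone, 3 genes within 1 Mb of ABCB1 and 33 on the drug handling lists were higher. Thinning gave 3 higher within 1 Mb, and dropping the low-count filter gave 19 higher on the lists. Over all genes, the number called higher was 2974 in the fit as reported. It fell without either shTTC8 library or without shScb replicate 1, and rose without shScb replicate 2. Apart from the stricter threshold, why these counts changed was not tested. ABCB1 took position 2 in shTTC8 with longest transcripts as lengths, and its log2 fold change lay between 3.50 and 3.63 under these alternatives. Same-numbered libraries did not deviate together (r = 0.032 across genes), so the numbers are not taken to pair them. With the replicate block, 3 members were called higher and 3 lower, the added one being ABCC2. The counts of ABCB4, RUNDC3B and ABCG2, all under 50 per library, limit what could be detected.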
